A study of Mus musculus with 30 samples.

Results

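The genes described here are 10 transcription factor genes that set or oppose the contractile state of smooth muscle: Srf, Myocd, Elk1, Klf2, Klf4, Klf5, Klf15, Foxo4, Gata6 and Tcf21. They were taken by name, through the Ensembl identifiers of the deposited count table, and each name matched 1 of the 78334 identifiers. Of these, 9 had enough counts to be tested, and Tcf21 had none in any library.

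Smooth muscle cells of the artery wall can leave a contractile state for a growing, matrix-making state. SRF, the serum response factor, binds the CArG box, and its effect depends on its partner: with myocardin (Myocd) or the MRTF proteins it turns on contractile and cytoskeletal genes, and with ternary complex factors such as ELK1 it turns on immediate early genes that serve growth. KLF4 and KLF5 are Krüppel-like factors known to oppose the contractile programme, KLF15 restrains growth and fibrosis, KLF2 is best known in endothelium, FOXO4 can repress myocardin activity, GATA6 favours quiescence of vascular smooth muscle, and TCF21 marks cells that take on a fibroblast-like state.

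RNA came from 30 libraries labelled as cultured aortic smooth muscle cells of the mouse, wild type per the series text, kept without serum for 48 h, transfected for at least 24 h, and, where treated, treated for 24 h. All libraries came from transfected cells, and no label gives the strain, age or number of animals, so p-values measure the spread between these libraries. CASC15 is a long noncoding RNA. Run 2 held control GapmeR (an antisense oligonucleotide that leads RNase H to its RNA) with no treatment (2 libraries), libraries labelled total CASC15 knockdown (2), a control plasmid (3) and total CASC15 overexpression (3). Run 3 held control cells with no treatment, with angiotensin II at 10 ng/ml and with PDGF-BB at 10 to 30 ng/ml, and long CASC15 knockdown with no treatment and with angiotensin II (4 libraries each). Of the 13 library titles that name a CASC target, 3 read CASC15 and 10 read another number, from CASC16 up to CASC22, including all 4 of untreated long knockdown. The series text names only CASC15, and the library names give 1 target name to all replicates of a group, so these libraries were grouped as CASC15 by their library names. Each library also carries a batch name from P16 to P19 that follows its replicate number, and the meaning of these names is not stated.

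Libraries of run 2 held between 18007199 and 21881959 counts, and those of run 3 between 15771490 and 30362047. The target was read as the gene 2610307P16Rik: it fell in long knockdown by 0.95 on the log2 scale without and by 0.79 with angiotensin II, and its log2 fold change was 6.79 in overexpression. It also fell with PDGF-BB in control cells, by 0.62, within 4 of 4 batches. In the libraries labelled total CASC15 knockdown it was 0.36 with no call, so those are named by their label. Markers that define differentiated smooth muscle were low: Cnn1 passed 3 counts in 2 of 30 libraries and Myh11 in 18, and the median of Tagln was 1.26 CPM (counts scaled by library size, the unit used for comparisons of 1 gene between libraries), against 188 for Acta2 and 67.9 for Smtn. The fibroblast list summed to 874 to 2395 CPM, mostly Dcn, and the epithelial or mesothelial list to 140 to 586 CPM, led by Krt19 and Cdh1. Cdh5, Tie1, Emcn and Erg of endothelium, Ptprc, Adgre1 and Cd3e of leukocytes and Sox10 of glia stayed at or under 3 counts everywhere.

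Levels can be set against each other between genes only per length, so counts were divided by exon length and scaled to the same total in each library (TPM). In untreated control cells of run 3, Klf4 stood at 347 ± 9.73 TPM (SD, n = 4) and Gata6 at 141 ± 14.7 TPM, far above the other factors. Srf at 24.9 ± 1.53 TPM and Foxo4 at 23.8 ± 1.98 TPM followed, and their ranges overlapped (22.7 to 26.1 and 21.5 to 26.0 TPM). Elk1 at 11.01 ± 0.721 TPM, Klf2 at 5.84 ± 0.963 TPM and Klf15 at 4.52 ± 0.793 TPM came next, and Klf2 and Klf15 overlapped at 4.58 to 6.84 and 3.37 to 5.12 TPM. Klf5 stood at 3.08 ± 0.475 TPM, overlapping the lowest Klf15 library, and Myocd was lowest of the detected factors at 1.41 ± 0.359 TPM. Klf4 and Gata6 held the top places in all 9 groups, with Gata6 first in the antisense control of run 2 (357 ± 32.7 against 301 ± 35.4 TPM, n = 2). Tcf21 had 0 counts in all 30 libraries, which allows a level of up to 0.0988 to 0.19 CPM by library (3 counts of its total, counting error only).

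**Figure D1:**
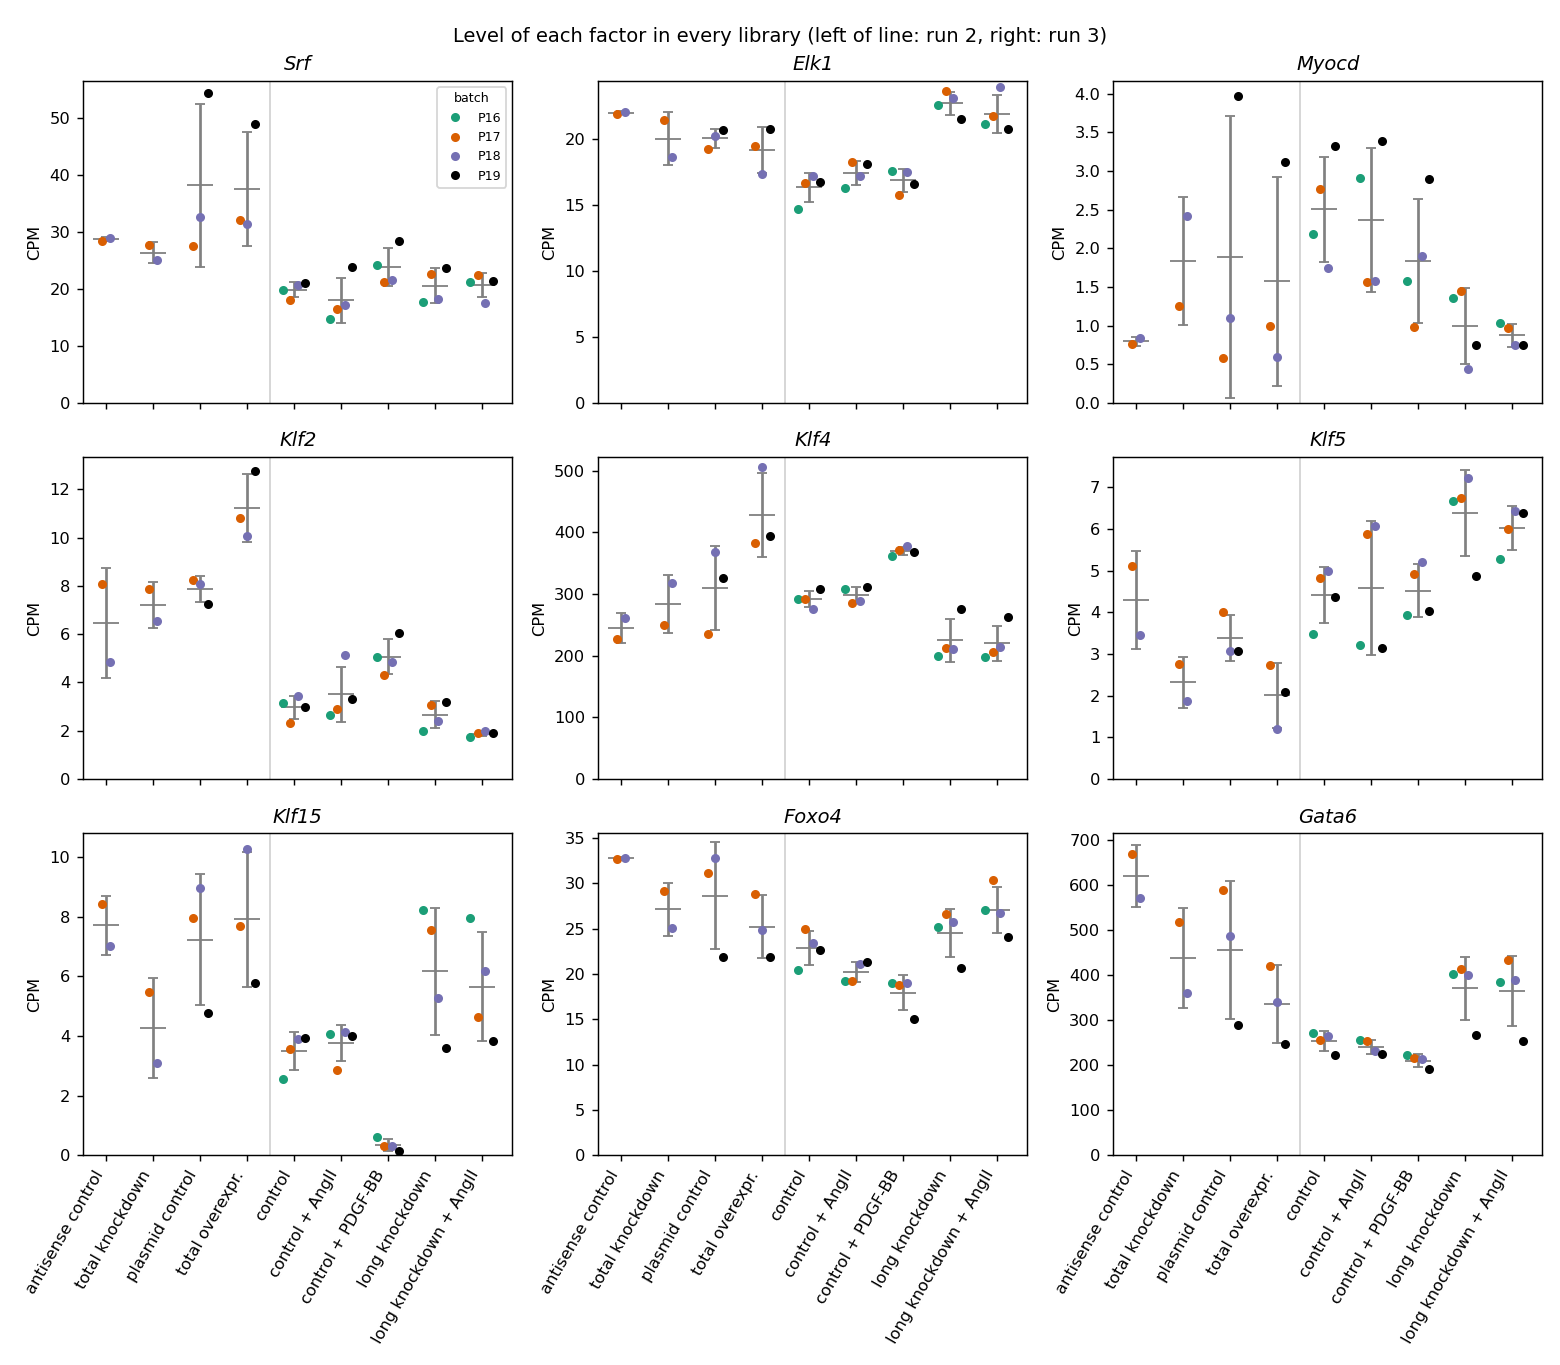
CPM (y axis, from 0, a scale of its own in each panel) of the 9 detected factors in every library of the 9 groups, with points coloured by batch and grey bars for the group mean ± SD. Klf15 is at or below 0.617 CPM in every PDGF-BB library, and Elk1 in all 8 long knockdown libraries lies above every run 3 library without knockdown.

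Long knockdown of CASC15 moved the factors in both directions. Without angiotensin II, 5 of the 9 tested factors changed, where 25% of the 15103 genes tested did: Elk1, Gata6 and Klf15 rose, and Klf4 and Myocd fell. With angiotensin II, 6 changed, where 26.7% of all genes did: Elk1, Foxo4 and Gata6 rose, and Klf2, Klf4 and Myocd fell. The median log2 fold change of the factors was 0.10 without and 0.33 with angiotensin II, beside 0.015 and 0.014 over all genes. The groups did not overlap for 3 and 5 of the 9 factors, where that held for 24.5% and 24.8% of all genes. A call means an adjusted p under 0.05 by the quasi-likelihood test of edgeR, with Benjamini-Hochberg adjustment over all genes of the run, and every adjusted p below comes from it. Epithelial or mesothelial markers moved as well: their sum in knockdown was 140 to 345 CPM against 331 to 442 CPM untreated, and 151 to 319 against 359 to 467 CPM with angiotensin II, with 4 of 5 tested markers called lower in each; Epcam and Krt18 were too low to test. Their part in the results was not tested, nor that of the fibroblast list, of which 5 and 4 of 6 tested genes were called while its sum overlapped the controls.

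PDGF-BB, a growth factor that drives smooth muscle toward growth, changed 4 of the 9 factors in control cells, where 43.6% of all genes tested changed. Klf2 and Klf4 rose, and Klf15 and Foxo4 fell, with a median of 0.04 for the factors and -0.017 for all genes. The share among the factors was close to that of all genes. For 6 of the 9 the groups did not overlap, beside 40.7% of all genes. PDGF-BB was not given with knockdown. It is set against the same 4 untreated control libraries as the long knockdown, so values from both are given side by side and their likeness is not read as a result. The epithelial or mesothelial sum was 495 to 586 CPM with PDGF-BB, above all 4 controls, and the fibroblast sum was 924 to 1233 against 2061 to 2195 CPM. The smooth muscle sum was 213 to 245 against 264 to 292 CPM and the glial sum 3.87 to 5.80 against 6.43 to 8.26 CPM. The part of these markers was not tested.

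**Figure D2:**
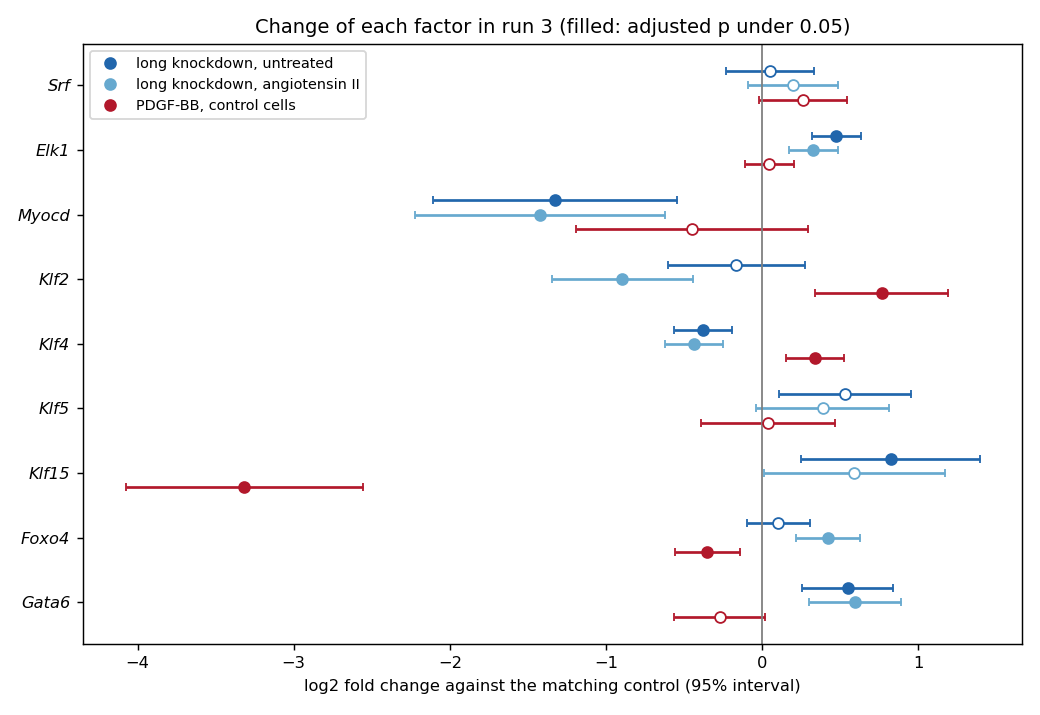
Log2 fold change (x axis, with the 95% interval) of the 9 tested factors for long knockdown against control without and with angiotensin II and for PDGF-BB against no treatment in control cells, 4 against 4 libraries each. Filled points have an adjusted p under 0.05; Klf15 under PDGF-BB lies farthest from 0, at -3.32.

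Srf, the hub of the family, was not called in any comparison. In run 3 it stood at 19.8, 18.03, 20.6 and 21.0 CPM in untreated controls (P16 to P19) and at 17.8, 22.6, 18.3 and 23.7 CPM in untreated long knockdown, so the groups overlapped. Knockdown minus control came to 0.05 ± 0.14 on the log2 scale (SE, adjusted p = 0.824, 95% interval -0.23 to 0.33). With angiotensin II the knockdown libraries held 21.2, 22.4, 17.5 and 21.4 CPM against 14.6, 16.4, 17.2 and 23.7 CPM, a difference of 0.20 ± 0.14 on the log2 scale (adjusted p = 0.308). Without batch P19, whose control was the highest, it was 0.33 (adjusted p = 0.02). Under PDGF-BB all 4 libraries were above every control, at 24.2, 21.3, 21.5 and 28.4 CPM, yet the log2 fold change of 0.26 ± 0.14 missed the threshold (adjusted p = 0.124). With the batch as a block it was 0.26 with an adjusted p of 0.0357.

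SRF is known to act on its own gene through CArG boxes, and the Srf promoter shows them. The 250 bases before the RefSeq start site, at chr17:46556163-46556412 on the minus strand (build GRCm38.p6), are printed 5′ to 3′ with the CArG boxes in capitals.
Srf: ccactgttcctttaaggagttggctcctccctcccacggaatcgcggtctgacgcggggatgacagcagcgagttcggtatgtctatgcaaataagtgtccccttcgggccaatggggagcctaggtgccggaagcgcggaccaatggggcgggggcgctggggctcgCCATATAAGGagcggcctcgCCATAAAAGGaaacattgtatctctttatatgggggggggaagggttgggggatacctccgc
A CArG box was searched on both strands as CC, then 6 bases that are A or T, then GG. The Srf window holds 2, CCATATAAGG at 82 to 73 bases before the start and CCATAAAAGG at 62 to 53 bases, while 1.47% of the 32851 promoters in the table hold any. No other factor in the table (Elk1, Klf2, Klf4, Klf15 and Tcf21) had such a box in this window.

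Myocd, the smooth muscle and heart coactivator of SRF, fell in long knockdown. Untreated controls held 2.18, 2.76, 1.75 and 3.32 CPM, and long knockdown held 1.35, 1.45, 0.435 and 0.743 CPM. All 4 knockdown libraries were below every control. The log2 fold change was -1.33 ± 0.37 (adjusted p = 0.0127), 2.51-fold lower. Without the long knockdown library of batch P18 it was -1.09 with an adjusted p of 0.051.

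The same direction held for Myocd under angiotensin II. Its libraries are not those of the untreated comparison, but they come from the same batches and were fitted together, so the arms are not fully independent. Controls held 2.91, 1.57, 1.58 and 3.39 CPM and knockdown libraries 1.03, 0.971, 0.749 and 0.747 CPM, again without overlap. Myocd was lower by 2.68-fold (log2 fold change -1.42 ± 0.38, adjusted p = 0.00935), and lower within 4 of 4 batches in each arm, by -0.69 to -2.16 untreated and -0.69 to -2.18 with angiotensin II (log2). Counts per library were low, 8 to 98 in run 3. Under PDGF-BB it held 1.57, 0.976, 1.90 and 2.90 CPM, which overlapped the controls (-0.45 ± 0.36, adjusted p = 0.328, 95% interval -1.19 to 0.30).

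Elk1, the ternary complex factor that carries growth signals to SRF, rose in long knockdown. It stood at 14.7, 16.7, 17.3 and 16.8 CPM in untreated controls and at 22.6, 23.7, 23.1 and 21.6 CPM in knockdown. Every knockdown library was above every control, by 1.39-fold (log2 fold change 0.47 ± 0.08, adjusted p = 9.74e-05). With angiotensin II it stood at 16.3, 18.2, 17.2 and 18.1 CPM in controls and at 21.2, 21.8, 24.0 and 20.8 CPM in knockdown, 1.26-fold higher without overlap (0.33 ± 0.08, adjusted p = 0.00308). PDGF-BB left Elk1 at 15.8 to 17.6 CPM, which overlapped the controls (0.05 ± 0.08, adjusted p = 0.649, 95% interval -0.11 to 0.20).

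Klf4, known as a repressor of contractile genes and a pluripotency factor, was the most abundant factor per length in 8 of 9 groups, the antisense control of run 2 being the exception. Untreated controls held 292, 292, 276 and 307 CPM. PDGF-BB libraries held 362, 371, 378 and 367 CPM, all above the controls, by 1.27-fold (log2 fold change 0.34 ± 0.09, adjusted p = 0.00407). Long knockdown held 200.1, 212, 211 and 276 CPM, all below the controls, by 1.3-fold (-0.38 ± 0.09, adjusted p = 0.00374). The batch P19 library lay nearest the controls, and without that batch the fold change was -0.47 (adjusted p = 2.79e-08). With angiotensin II, controls held 308, 285, 288 and 312 CPM and knockdown libraries 199, 206, 215 and 262 CPM, 1.35-fold lower without overlap (-0.44 ± 0.09, adjusted p = 0.00111).

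Klf5, a growth-promoting Krüppel-like factor of injured vessels, was scarce and was not called. Untreated controls held 3.49, 4.82, 4.99 and 4.37 CPM and knockdown 6.68, 6.73, 7.23 and 4.88 CPM, and the P19 knockdown library alone reached into the control range. The log2 fold change was 0.53 ± 0.20 (adjusted p = 0.0593), 0.53 with the batch as a block (adjusted p = 0.00824) and 0.63 without batch P19 (adjusted p = 0.0112). With angiotensin II the controls were spread over 3.15 to 6.07 CPM and knockdown held 5.29 to 6.44 CPM (0.39 ± 0.20, adjusted p = 0.171). The value was 0.42 with the block (adjusted p = 0.0374) and 0.20 without batch P19 (adjusted p = 0.44). Under PDGF-BB it held 3.93 to 5.22 CPM (0.04 ± 0.21, adjusted p = 0.895).

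Klf15, which restrains growth and responds to glucocorticoids, showed the largest change of any of the 9 tested factors in these 3 comparisons. It fell from 2.56, 3.57, 3.89 and 3.93 CPM (61 to 116 counts) to 0.617, 0.308, 0.316 and 0.153 CPM (3 to 11 counts) under PDGF-BB. The groups were far apart, and Klf15 was 9.97-fold lower (log2 fold change -3.32 ± 0.36, adjusted p = 4.33e-07). Within batches the drop ran from -2.05 to -4.69 on the log2 scale. The smallest counts set how well its size is known, and leaving out single libraries gave -3.10 to -3.74.

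In long knockdown Klf15 was higher, less evenly. Untreated knockdown held 8.22, 7.57, 5.27 and 3.61 CPM, of which the P19 library lay within the control range (log2 fold change 0.82 ± 0.27, adjusted p = 0.0322). Leaving out control P16, P17 or P18 or knockdown P16 or P17 ended the call, with adjusted p of 0.0512 to 0.132, and without batch P19 the fold change was 1.07 (adjusted p = 0.000489). With angiotensin II it held 7.96, 4.64, 6.19 and 3.84 CPM against 4.05, 2.84, 4.15 and 4.01 CPM, which overlapped (0.59 ± 0.28, adjusted p = 0.121). Without batch P19 that value was 0.77 (adjusted p = 0.00966).

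Klf2, a flow-responsive factor of endothelium, rose with PDGF-BB and fell in long knockdown under angiotensin II. Untreated controls held 3.15, 2.33, 3.44 and 2.98 CPM and PDGF-BB libraries 5.05, 4.31, 4.85 and 6.06 CPM, 1.7-fold higher without overlap (log2 fold change 0.77 ± 0.20, adjusted p = 0.00487). With angiotensin II, knockdown held 1.75, 1.89, 2.00 and 1.89 CPM against 2.66, 2.89, 5.14 and 3.33 CPM, 1.86-fold lower without overlap (-0.89 ± 0.22, adjusted p = 0.00436). In untreated knockdown it held 2.01 to 3.18 CPM, which overlapped the controls (-0.17 ± 0.21, adjusted p = 0.603). Endothelial markers summed to 2.55 to 5.14 CPM over run 3, with Pecam1 and Egfl7 above 3 counts in 30 of 30 libraries and Cdh5 at or under 3 counts in every library. Of the 3 endothelial genes tested, 2 were called in each of the 3 contrasts, 1 higher and 1 lower. With PDGF-BB Egfl7 rose (log2 fold change 0.77) and Pecam1 fell (-1.65), and in knockdown under angiotensin II Vwf rose (3.42) and Egfl7 fell (-2.61). The part of these markers in the Klf2 values was not tested.

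The promoters of the 3 Krüppel-like genes that changed are shown because KLF proteins and their relative SP1 bind GC boxes and CACCC elements. Each is the 250 bases before the RefSeq start (GRCm38.p6), 5′ to 3′, with GGGCGG on either strand in capitals (CCGCCC on the printed strand is the reverse match). Klf4 lies at chr4:55532476-55532725 (minus), Klf2 at chr8:72318812-72319061 (plus) and Klf15 at chr6:90462326-90462575 (plus).
Klf4: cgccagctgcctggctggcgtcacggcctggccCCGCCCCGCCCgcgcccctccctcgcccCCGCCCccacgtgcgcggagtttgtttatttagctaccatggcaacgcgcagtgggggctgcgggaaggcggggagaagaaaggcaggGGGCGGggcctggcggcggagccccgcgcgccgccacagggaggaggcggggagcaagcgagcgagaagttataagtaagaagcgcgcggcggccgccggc
Klf2: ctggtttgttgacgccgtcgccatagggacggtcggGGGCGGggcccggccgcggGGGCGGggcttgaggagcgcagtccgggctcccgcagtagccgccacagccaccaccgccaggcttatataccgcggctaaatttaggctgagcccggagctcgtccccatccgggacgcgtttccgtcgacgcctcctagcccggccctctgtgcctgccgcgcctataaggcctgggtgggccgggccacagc
Klf15: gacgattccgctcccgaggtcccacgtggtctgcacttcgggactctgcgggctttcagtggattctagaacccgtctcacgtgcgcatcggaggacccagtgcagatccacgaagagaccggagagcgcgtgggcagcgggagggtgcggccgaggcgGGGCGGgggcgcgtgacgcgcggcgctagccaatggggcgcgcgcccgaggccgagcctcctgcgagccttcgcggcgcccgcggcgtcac
Klf4 holds 4 matches, Klf2 holds 2 and Klf15 holds 1, and 32.7% of all promoters in the table hold at least 1. CACCC, searched on both strands, had no match in Klf4 and 1 each in Klf2 and Klf15, and 52% of all promoters hold it. No GGGCGG match overlapped a CACCC match in these windows.

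Foxo4, a forkhead factor that can hold myocardin back, fell with PDGF-BB and rose in long knockdown under angiotensin II. Controls held 20.5, 25.0, 23.4 and 22.6 CPM and PDGF-BB libraries 18.96, 18.8, 18.96 and 15.01 CPM, all lower, by 1.27-fold (log2 fold change -0.35 ± 0.10, adjusted p = 0.00694). With angiotensin II, knockdown held 27.1, 30.4, 26.7 and 24.1 CPM against 19.2, 19.2, 21.1 and 21.3 CPM, 1.34-fold higher without overlap (0.42 ± 0.10, adjusted p = 0.00334). In untreated knockdown it held 20.7 to 26.7 CPM and overlapped the controls (0.10 ± 0.10, adjusted p = 0.465).

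Gata6, the abundant GATA factor of these cells, rose in long knockdown. Untreated controls held 271, 256, 264 and 222 CPM and knockdown 402, 414, 399 and 267 CPM. The P19 knockdown library reached only into the control range, while the other 3 were well above it, and the log2 fold change was 0.55 ± 0.14 (1.46-fold, adjusted p = 0.00672). With angiotensin II it held 385, 433, 388 and 253 CPM against 257, 253, 231 and 226 CPM (0.60 ± 0.14, 1.51-fold, adjusted p = 0.00374), again with P19 alone in the control range. Within batches Gata6 was higher in 4 of 4 in both arms, and without batch P19 the values were 0.61 (adjusted p = 1.21e-09) and 0.70 (adjusted p = 1.31e-10). Under PDGF-BB it held 222, 215, 214 and 191 CPM, lower within 4 of 4 batches. That difference of -0.27 ± 0.14 was not called (adjusted p = 0.125), but was called with the batch as a block (-0.27, adjusted p = 0.0127) and without batch P19 (-0.28, adjusted p = 0.000106).

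**Figure D3:**
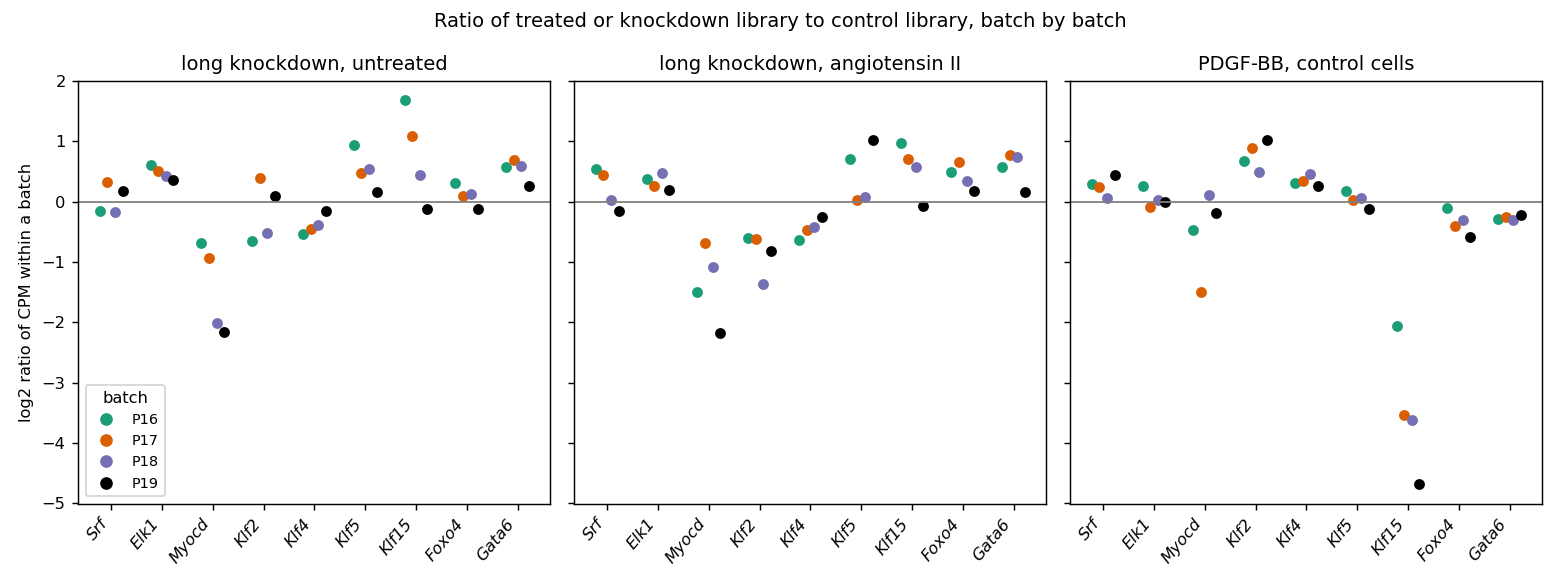
Log2 ratio of CPM (y axis) between the knockdown or treated library and the control library of the same batch, for the 9 tested factors in 3 comparisons, with 1 point per batch. Myocd and Klf4 are below 0 and Elk1 and Gata6 above 0 in 4 of 4 batches of both knockdown comparisons, and Klf15 ranges from -4.69 to -2.05 under PDGF-BB.

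Angiotensin II alone gave no call among the factors in control cells, where 0% of the 15103 genes tested were called, or in long knockdown, also 0%. By edgeR at an unadjusted p under 0.05, 0 of 9 factors passed in control cells and 1 in knockdown (Klf2), beside 156 and 174 of all genes. DESeq2 called 0 factors in each, and 1 and 0 of all genes. The 95% intervals were narrow for Klf4 (-0.15 to 0.22 in control cells and -0.21 to 0.16 in knockdown, log2) and wide for Myocd (-0.83 to 0.64 and -1.03 to 0.64).

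Whether angiotensin II acted differently in knockdown was tested as an interaction, and no factor was called, where 0% of genes were. Klf2 and Foxo4 had the smallest unadjusted p, 0.0252 and 0.0328, with interaction terms of -0.73 ± 0.30 and 0.32 ± 0.14 (log2, adjusted p = 1 for both). Thus the calls of Klf2 and Foxo4 with angiotensin II and not without it were not shown to differ. DESeq2 called 0 factors and 2 of all genes, and 166 genes in all had an unadjusted p under 0.05 in edgeR.

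In run 2 no factor was called with total overexpression, where 1.65% of the 15350 genes tested were called, in the libraries labelled total knockdown (2.07%) or between the control plasmid and the control antisense oligonucleotide (1.18%). The smallest unadjusted p values by edgeR were in overexpression, 0.0327 for Klf4 and 0.0377 for Klf2. By that measure 2, 0 and 0 of the 9 factors passed 0.05, beside 2295, 1975 and 1444 of the 15350 genes. These counts do not set the factors apart. DESeq2 called 0 in each comparison. Groups of 2 or 3 libraries limit what these tests can call.

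Klf4 with overexpression held 382, 506 and 395 CPM (P17 to P19) against 236, 369 and 326 CPM with the control plasmid. The overexpression libraries were all above the controls, and higher within 3 of 3 batches (log2 fold change 0.46 ± 0.19, adjusted p = 0.278), and was called with the batch as a block (0.47, adjusted p = 0.00732). Klf5 held 2.75, 1.20 and 2.08 CPM against 4.01, 3.08 and 3.06 CPM, lower without overlap (-0.75 ± 0.34, adjusted p = 0.35, and -0.78 with the block, adjusted p = 0.0427). Klf2 held 10.8, 10.1 and 12.8 CPM against 8.24, 8.09 and 7.26 CPM, higher without overlap (0.51 ± 0.21, adjusted p = 0.296, and 0.0587 with the block). Gata6 held 420, 341 and 246 CPM against 590, 488 and 288 CPM, lower within 3 of 3 batches (-0.44 ± 0.28, adjusted p = 0.5, and -0.41 with the block, adjusted p = 0.00945). The block called 17.7% of all genes here and 14.4% in the libraries labelled total knockdown. In overexpression 3 of 9 factors did not overlap their controls, beside 18% of all genes. The glial list summed to 3.01 to 4.31 CPM against 5.90 to 11 CPM with the control plasmid, and with the block 2 of 2 glial genes tested were called, both lower. The block also called 3 of 7 fibroblast genes (1 higher, 2 lower) and 3 of 5 epithelial or mesothelial genes (1 higher, 2 lower). It called 1 of 3 leukocyte genes, higher. Of 9 smooth muscle genes tested (median log2 fold change -0.845), 1 was called lower without the block and 2 with it. The smooth muscle sum overlapped the controls, at 255 to 496 against 208 to 547 CPM. The part of all these markers was not tested.

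In the libraries labelled total knockdown Gata6 held 517 and 360 CPM (P17 and P18) against 670 and 572 CPM (log2 fold change -0.50 ± 0.34, adjusted p = 0.634, and -0.52 with the block, adjusted p = 0.00897). Klf15 held 5.47 and 3.09 against 8.42 and 7.01 CPM (-0.85 ± 0.39, adjusted p = 0.409) and Klf5 2.76 and 1.88 against 5.12 and 3.46 CPM (-0.89 ± 0.42, adjusted p = 0.416). All 3 were lower without overlap, as was so in either direction for 7 of the 9 tested factors and 49.4% of all genes at 2 against 2 libraries, so this does not set them apart. Myocd went the other way and had the largest difference, 1.25 and 2.42 against 0.757 and 0.84 CPM, higher without overlap (1.20 ± 0.96, adjusted p = 0.699). None of the 4 was called without the block. Leukocyte markers summed to 17.4 to 21.2 CPM in those libraries against 0.713 to 0.84 CPM in their controls, with Ptprc, Adgre1 and Cd3e at or under 3 counts. Of the 3 leukocyte genes tested, Cd68 (5.19, adjusted p = 0.00576) and Csf1r (4.30, adjusted p = 0.0262) were called higher without the block and Lyz2 was not (2.04, adjusted p = 0.714), as log2 fold changes. The epithelial or mesothelial sum was 455 to 543 against 297 to 325 CPM, the fibroblast sum 874 to 891 against 1025 to 1101 CPM and the endothelial sum 7.12 to 11.8 against 3.34 to 4.74 CPM, also without overlap. With the block 2 of 3 endothelial and 2 of 5 epithelial or mesothelial genes tested were called higher and 3 of 7 fibroblast genes lower. Of 9 smooth muscle genes tested, 1 was called higher without the block and 3 with it. The smooth muscle sum overlapped the controls, at 212 to 236 against 190 to 216 CPM. The part of these markers in the results was not tested.

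Batch P19 stood apart for several factors. In run 2, the P19 libraries of the control plasmid and overexpression held Myocd at 3.97 and 3.12 CPM against 0.586 to 1.10 CPM in the other libraries of those groups, and Srf at 54.4 and 49.0 CPM against 27.5 to 32.7 CPM. Gata6 was lowest in P19 in 2 of 2 groups of run 2 and 5 of 5 of run 3. Srf was highest in P19 in 4 of 5 groups of run 3.

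The genes that work beside SRF moved in both directions in long knockdown. Of 13 SRF and myocardin partners tested, 9 were called untreated (6 higher, 3 lower, median 0.20) and 7 with angiotensin II (5 higher, 2 lower, median 0.19), beside 25% and 26.7% of all genes. Hopx, a homeodomain protein that holds SRF back, rose by 1.68 ± 0.36 and 1.52 ± 0.36 (log2), and Hdac4, a histone deacetylase that represses MEF2, by 0.77 ± 0.09 and 0.85 ± 0.10. Mef2a, a MADS-box relative of SRF, fell by 0.77 ± 0.06 in each arm. The ternary complex factor Elk3 fell by 0.25 ± 0.06 and 0.20 ± 0.05, while Elk4 was not called (0.09 and -0.05). The MRTF coactivators were not called: Mrtfa differed by -0.04 and -0.09 and Mrtfb by 0.20 and 0.22, though Mrtfb was called with the batch as a block (adjusted p = 0.00524 and 0.00336).

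Target genes of SRF were described by class. Of 11 cytoskeletal SRF-MRTF targets, 7 fell and none rose in each arm (median -0.34 in both), beside 25% and 26.7% of all genes called in either direction. Those that fell included the cytoplasmic actins Actb, by 0.61 ± 0.15 untreated and 0.59 ± 0.15 with angiotensin II, and Actg1, by 0.54 ± 0.16 and 0.56 ± 0.16. Of 17 contractile targets tested, 8 were called untreated (5 higher, 3 lower, median 0.04) and 10 with angiotensin II (6 higher, 4 lower, median -0.01), beside the same shares of all genes. Smtn, smoothelin, rose by 0.60 ± 0.09 and 0.56 ± 0.09. Myl9, the regulatory myosin light chain, fell by 1.79 ± 0.38 and 1.70 ± 0.38, and Tpm1, a tropomyosin, by 0.42 ± 0.13 and 0.40 ± 0.13. Acta2 was not called (-0.07 and -0.01), nor was Tagln (0.04 and 1.20, the latter called with the batch as a block, adjusted p = 0.0293). With the block, 14 contractile targets were called untreated, 7 higher and 7 lower, where the block called 40.6% of all genes.

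Of 10 immediate early SRF-TCF targets, 3 rose and 1 fell untreated and 3 rose and 2 fell with angiotensin II, beside 25% and 26.7% of all genes called. Egr1, a zinc finger factor induced by growth signals, rose by 1.29 ± 0.24 and 1.15 ± 0.24, and Junb, an AP-1 subunit, fell by 0.73 ± 0.18 and 0.77 ± 0.18. Of 9 other Krüppel-like genes tested, 1 rose and 2 fell in each arm, 33.3% called and near those shares: Klf7 rose by 0.47 ± 0.08 and 0.33 ± 0.08, Klf10, a TGF-beta-induced member, fell by 0.56 ± 0.13 and 0.48 ± 0.13, and Klf3, a repressor, by 0.27 ± 0.07 in both.

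The promoters of 2 targets that fell in long knockdown and hold a CArG box near the start are shown with the box in capitals, from the same table and window: Actg1 at chr11:120348496-120348745 (minus) and Myl9 at chr2:156775214-156775463 (plus).
Actg1: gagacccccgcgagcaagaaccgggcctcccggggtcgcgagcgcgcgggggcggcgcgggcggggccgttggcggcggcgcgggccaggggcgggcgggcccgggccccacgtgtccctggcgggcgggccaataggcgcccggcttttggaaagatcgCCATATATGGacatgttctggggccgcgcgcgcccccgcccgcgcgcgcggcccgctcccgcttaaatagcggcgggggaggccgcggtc
Myl9: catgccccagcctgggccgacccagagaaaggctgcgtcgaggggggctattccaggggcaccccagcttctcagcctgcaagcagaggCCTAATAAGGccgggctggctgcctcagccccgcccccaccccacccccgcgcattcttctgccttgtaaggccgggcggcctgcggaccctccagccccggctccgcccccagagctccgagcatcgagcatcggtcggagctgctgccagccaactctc
The box lies 90 bases before the start in Actg1 and 161 bases in Myl9. Among genes in the promoter table, 3 of 9 cytoskeletal, 2 of 18 contractile and 1 of 6 immediate early targets held such a box in any of their promoters. Over all 27025 genes it was 1.62%. The lists hold genes known as SRF targets, so a higher share was built in and is not read as a result. The other targets with a box are not shown, and boxes farther from the start were not searched.

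Under PDGF-BB most immediate early targets rose. Of the 10 immediate early targets, 7 rose and 1 fell, with a median of 1.09, beside 43.6% of all genes called and a median of -0.017. Egr1 rose from 34.8 ± 8.53 to 176 ± 14.9 CPM (SD, n = 4), by 2.34 ± 0.25 on the log2 scale, and Ier2, an immediate early nuclear protein, by 1.28 ± 0.12, while Dusp1, a MAP kinase phosphatase, fell by 0.54 ± 0.12. Of the 17 contractile targets tested, 3 rose and 6 fell, with a median of -0.65: Acta2 fell by 0.94 ± 0.14, while Smtn rose by 1.03 ± 0.09 and Tpm2, a tropomyosin, by 0.50 ± 0.07. Of 11 cytoskeletal targets, 1 rose and 3 fell (median 0.03; the block gave 3 higher and 3 lower, and 54.5% of all genes), among them Ccn2, a matricellular growth factor, which fell by 1.07 ± 0.21.

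Of 13 partners of SRF, 2 rose and 3 fell under PDGF-BB, 38.5% called beside 43.6% of all genes. Elk4, a ternary complex factor, rose by 0.46 ± 0.06, and Hopx fell by 2.29 ± 0.43. Mrtfa (0.09), Mrtfb (-0.06) and Elk3 (0.10) were not called. Of 9 other Krüppel-like genes, Klf10 and Klf16 rose by 0.60 ± 0.12 and 0.59 ± 0.07, and Klf11 fell by 0.80 ± 0.12, and with 33.3% called they too were below the share of all genes.

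**Figure D4:**
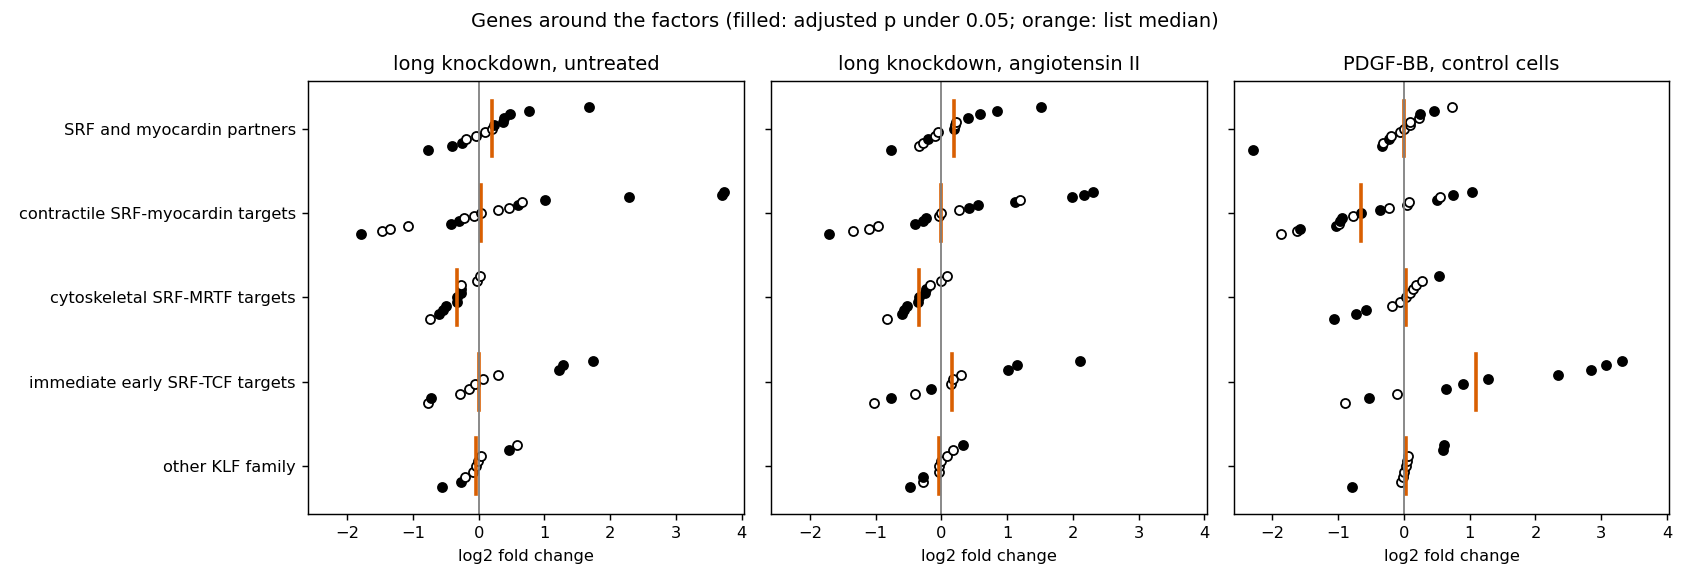
Log2 fold change (x axis, shared) of each tested gene of 5 lists around SRF and the Krüppel-like factors in the 3 comparisons, with filled points for an adjusted p under 0.05 and an orange bar for the list median. Cytoskeletal targets lie to the left in both knockdown panels (median -0.34), and immediate early targets lie to the right with PDGF-BB (median 1.09).

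Relatives of Foxo4, Gata6 and Tcf21 gave 3 of 10 calls in untreated knockdown (2 higher, 1 lower), 5 with angiotensin II (3 higher, 2 lower) and 3 with PDGF-BB (3 lower; the block gave 5, of which 2 were higher, and 54.5% of all genes). Over all genes without the block 25%, 26.7% and 43.6% were called, so the untreated share was near it and the PDGF-BB share below it. Tcf12, an E protein that pairs with factors such as TCF21, fell from 157 ± 4.73 to 62.0 ± 11.7 CPM in untreated knockdown (SD, n = 4; log2 fold change -1.35 ± 0.10, adjusted p = 6.38e-09) and by 1.41 ± 0.10 with angiotensin II. Tcf4, another E protein, rose by 0.53 ± 0.10 and 0.46 ± 0.10, and Foxo1 by 0.37 ± 0.09 in both. With PDGF-BB, Foxo1 fell by 0.64 ± 0.09 and Tcf4 by 0.49 ± 0.10.

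Of 15 other lineage regulators tested, 7 were called in untreated knockdown (4 higher, 3 lower), 8 with angiotensin II (3 higher, 5 lower) and 5 with PDGF-BB (2 higher, 3 lower; the block gave 8, of which 2 were higher, and 54.5% of all genes), beside 25%, 26.7% and 43.6% of all genes. Sox9, a cartilage factor, rose by 0.76 ± 0.11 and 0.73 ± 0.11 in knockdown, Zeb1 rose by 0.64 ± 0.06 and 0.56 ± 0.06, and its relative Zeb2 fell by 0.42 ± 0.09 and 0.41 ± 0.09. With PDGF-BB, Runx2, an osteoblast factor, rose by 0.54 ± 0.08 and Tbx18, an epicardial and mural cell factor, fell by 0.84 ± 0.14. Of 11 markers of the modulated state, 1 rose and 5 fell in untreated knockdown, 6 fell with angiotensin II, and 3 rose and 2 fell with PDGF-BB, the last near the share of all genes, where osteopontin (Spp1) rose by 4.16 ± 0.50, Mgp by 1.72 ± 0.19, and Dcn fell by 1.26 ± 0.11. With the block, 10 of these markers were called in untreated knockdown (2 higher, 8 lower), 9 with angiotensin II (2 higher, 7 lower) and 9 with PDGF-BB (4 higher, 5 lower), where the block called 40.6%, 41.3% and 54.5% of all genes.

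Across the 20 libraries of run 3, the relation between pairs of factors is described by Pearson's r of log2 CPM and with no test, since libraries share groups and batches. Klf4 ran against Gata6 (r = -0.95, and -0.73 over the 10 libraries of run 2), Foxo4 (-0.87 and -0.55) and Elk1 (-0.82 and -0.64). It also ran against Klf15 in run 3 (-0.83) but not in run 2 (0.17). Foxo4 ran with Gata6 (0.85 and 0.95) and Klf2 with Klf4 (0.81 and 0.56). Srf and Myocd were nearly unrelated in run 3 (0.06) and ran together in run 2 (0.69), where both were high in batch P19.

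The genes most like each factor over run 3 were sought among 10182 genes with a mean of at least 5 CPM. Only the top gene of each factor is given. Calr was most like Klf4 (r = 0.99, and 0.77 in run 2) and Cables1 most like Klf15 (0.98 and -0.28). Col5a2 was most like Gata6 (0.98 and 0.51) and Dvl2 most like Foxo4 (0.94 and 0.81). Ptprk was most like Elk1 (0.95 and 0.65), Mettl14 most like Klf5 (0.85 and 0.69), Chml most like Klf2 (0.89 and -0.69), Nabp2 most like Srf (0.88 and -0.12) and Pigl most like Myocd (0.88 and 0.08).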

How the data were processed

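The authors deposited expected counts per gene, made with RSEM per the labels and not scaled to depth. STAR 2.7.11b, RSEM 1.3.1 and the builds GRCm39 and mm10 are named in the submitters' processing notes, which do not say which build the table used; strand is not given in the sources used here. Symbols, exon lengths and overlaps came from GENCODE M21 by Ensembl identifier, and promoters from RefSeq on GRCm38.p6, which held 6 of the 10 factors. Exons of Elk1 overlap Uxt over 1.41% of their length and those of Gata6 an antisense gene over 1.43%.

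Expected counts were rounded. Each run was fitted alone, all groups together, with R 4.3.3 and edgeR 4.0.16: filterByExpr (minimum count 10, total 15), TMM, robust quasi-likelihood, 1 coefficient per group, no replicate block, Benjamini-Hochberg adjustment, two-sided. CPM used TMM library sizes. Replicate numbers pair libraries because the labels give a shared batch. After removing group means, libraries of 1 batch correlated at a mean of 0.23 in run 2 (13 pairs) and 0.197 in run 3 (40 pairs). Other pairs stood at -0.121 and -0.0606. Removing group means itself pushes other pairs below 0 when pairs of 1 batch lie above it, so these negative values add no separate evidence of pairing. No 2 replicates agreed within counting noise (chi-square per degree of freedom 4.37 to 80.5 over 38 pairs). Alternatives were the batch block, RLE scaling, DESeq2 1.42.0, no filter, a minimum mean of 1 CPM, a fit of the compared groups alone, each library left out and, chosen after seeing the data, no batch P19. The scripts were tested on simulated counts.

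The factors and gene lists were chosen with earlier results of these data known. Named genes were all the factors and, per list and comparison, the 2 called genes with the largest rise and the 2 with the largest fall at a mean of at least 5 CPM, plus Acta2, Tagln, Myh11, Mrtfa, Mrtfb, Elk3 and Elk4; for likeness, up to 3 genes with the highest correlation over run 3. A result for 1 of the genes this rule selects is not reported here.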

Additional observations from a re-analysis of the deposited data

Results flagged for a closer look

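For the 9 detected factors in the 5 groups of 4 libraries, 45 sets of values that share the same libraries, 1 library lay apart from the other 3 by more than Dixon's 95% limit in 4 sets, where chance gives about 1 in 20. Gata6 in untreated long knockdown was 267 CPM in batch P19 against 399 to 414 CPM in the others. Klf4 in the same group was 276 CPM in P19 against 200.1 to 212 CPM, and both were nearer the control level than the rest. Foxo4 with PDGF-BB was 15.01 CPM in P19 against 18.8 to 18.96 CPM, farther from the controls. Klf15 in control cells with angiotensin II was 2.84 CPM in P17 against 4.01 to 4.15 CPM.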

How the results depend on the processing

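With the batch as a replicate block, 1 factor (Gata6) in place of 0 was called in the libraries labelled total knockdown and 3 (Klf4, Klf5, Gata6) in place of 0 with overexpression; it added the calls of Klf5 in both knockdown arms and of Srf and Gata6 with PDGF-BB given above and changed no other call of a factor. Without batch P19, 6, 8 and 5 factors were called in long knockdown without and with angiotensin II and with PDGF-BB, beside 40%, 39.9% and 48.9% of all genes. Calls over all genes rose under the block from 317 to 2209, 253 to 2721, 181 to 459, 3783 to 6126 and 4033 to 6238 in the order of total knockdown, overexpression, the control comparison and long knockdown without and with angiotensin II. In run 2 they ranged, with 1 library left out, from 4 to 188 for total knockdown, 86 to 867 for overexpression and 67 to 277 for the control comparison. In that order DESeq2 called 666, 732 and 344, no filter 1325, 1363 and 1106, and the compared groups alone 1079, 66 and 101; a minimum mean of 1 CPM gave 190 for total knockdown, and without batch P19 the counts were 1041 for total knockdown, 844 for overexpression and 6062 for untreated long knockdown. Klf5 was also called in untreated long knockdown by DESeq2 (0.53, adjusted p = 0.0451) and without the P19 knockdown library (0.64, adjusted p = 0.0222), Klf15 with angiotensin II without its P19 knockdown library (0.74, adjusted p = 0.04998), and Gata6 with PDGF-BB in a fit of those groups alone (-0.30, adjusted p = 0.00858). Of 1206 recomputed fold changes of the factors, 0 reversed a called direction, 6 lost and 16 gained a call. When each library was left out, the number of factors called ran from 4 to 6 in untreated long knockdown and 6 to 7 with angiotensin II. It was 4 each time with PDGF-BB and 0 each time elsewhere. With every library kept, 25%, 26.7% and 43.6% of all genes were called in those 3 comparisons. The shares of all genes in run 3 with 1 library left out are not given, so these counts are not read against them. Counts of 3 to 11 limit Klf15 under PDGF-BB, and 8 to 98 limit Myocd.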
